A study of Mus musculus with 49 samples.

Results

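Cytochrome P450 enzymes are heme monooxygenases, each encoded by 1 *Cyp* gene, that insert an oxygen atom into fatty acids, sterols, retinoids, vitamins and foreign compounds. Most sit in the endoplasmic reticulum and receive electrons from P450 oxidoreductase (*Por*), and a few sit in mitochondria and use ferredoxin. The kidney's proximal tubule is one of the organ's richest sites of these enzymes, where they form hydroxylated and epoxidised fatty acids and oxidise steroids, drugs and solvents. A symbol gives the family as the number after Cyp and the subfamily as the letter, so *Cyp2e1* is a family 2 gene. The members described here were the protein-coding rows of the expression table whose symbol reads Cyp, digits, lower-case letters and digits, without the vitamin D genes *Cyp24a1* and *Cyp27b1*. The rule used no measured value. It took 92 of the 43309 genes of the table, in 15 families, and 7 further protein-coding *Cyp* symbols that go on after the last digits or lack them were left out.

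The study followed mouse kidneys after bilateral ischemia-reperfusion injury (IRI). Male C57BL/6NCrl mice, 10 to 12 weeks old at surgery, had both renal pedicles clamped for 21 minutes, and RNA from whole kidneys was sequenced 2, 4, 24, 48 and 72 hours, 7, 14 and 28 days and 6 and 12 months later (IRI2h to IRI12m). Sham surgery went through the same steps without clamping and was sampled at 4 hours, 24 hours and 12 months (SHAM4h, SHAM24h, SHAM12m), and mice without surgery gave NORM3m, NORM9m and NORM15m, named for age in months. Each of the 16 groups held 3 kidneys, except IRI6m with 4, so 49 libraries in all. The labels name no transgene or drug, and the study calls the kidneys of a group biological replicates. The injury groups hold only mice that lived to the time of sampling, and IRI2h had no sham of its own hour, so it was set against SHAM4h.

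Levels are the FPKM values deposited by the authors (sequenced fragments divided by transcript length and by library size), in which a gene's value is a share of its library. A gene was tested where it reached 1 FPKM in at least 3 libraries, which 40 of the 92 members and 14895 genes in all did. *Cyp3a13*, *Cyp4f18* and *Cyp26a1* stayed below 1 FPKM in every control library and passed only through injured kidneys. The filter therefore favoured higher calls of these members. Differences are on the log2(FPKM + 0.1) scale, which understates changes of low genes, and a member was called higher or lower where limma's adjusted p (Benjamini-Hochberg over the 14895 genes) was below 0.05. Read depth estimated from the steps of the low values fell into 3 sets, 10599617 to 23649167 reads in the NORM and IRI6m libraries, 38138258 to 52179929 in 30 libraries and 70082836 to 88365172 in SHAM12m and IRI12m. In IRI6m against SHAM12m and IRI12m against NORM15m, depth and group cannot be told apart. Several libraries stood apart from their group, NORM3m-R1 above all, and SHAM12m-R3 carries IRI in 1 label and sham in 3 others and was taken as sham. In whole kidney, fewer cells of a type and less RNA per cell cannot be told apart.

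A few members held most of the signal. Over the 18 control libraries *Cyp4b1*, which oxidises fatty acids and activates furan toxins, held 32.7% of the members' summed FPKM. *Cyp2e1*, the ethanol and solvent oxidase, held 19.1%, and *Cyp2j5*, an arachidonic acid epoxygenase of the mouse proximal tubule, 12.5%. *Cyp2a4*, a steroid hydroxylase, held 7.64%. The first 10 members together held 90.4%. Of the 52 members below the filter, 3 were listed at 0 in every library, 37 had a highest group mean below 0.1 FPKM, these 3 included, and 15 reached a group mean of 0.1 or more. *Cyp2t4* at IRI4h (0.891 FPKM) and *Cyp4f15* at IRI12m (0.818 FPKM) were the highest of these. *Cyp1a1*, the classical target of the aryl hydrocarbon receptor (AHR), stayed below the filter, with 0.379, 0.411 and 0.297 FPKM in SHAM24h and 0.111, 0.0939 and 0.0466 FPKM in IRI48h, and was not tested. The adrenal enzyme gene *Cyp11a1* never passed 0.0778 FPKM.

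The members' summed FPKM was at its lowest 24 hours after injury. It averaged 6924 ± 228 (SD, n = 3) in SHAM4h and 5146 ± 915 in IRI4h. At 24 hours it averaged 5854 ± 448 in SHAM24h and 1835 ± 203 in IRI24h, the last being 31.3% of SHAM24h. The sum then stood at 38.9% at 48 hours, 46.9% at 72 hours, 43.4% at 7 days, 62.6% at 14 days and 71.4% at 28 days, as a description with no test. On the same scale the kidneys without surgery were at 90.4% (NORM3m), 73.6% (NORM9m) and 82.5% (NORM15m), and SHAM4h was at 118%. At 12 months the members' sum was 6124 ± 1099.7 in IRI12m and 6518 ± 171 in SHAM12m. The FPKM sum of 10 proximal tubule markers was also at its lowest at 24 hours, at 4254 to 4411 in SHAM24h, 1110.0 to 1441 in IRI24h and 2586 to 2728 in IRI7d. Of the 10, 8 were called lower at 24 hours (all genes 15.4%). The sums did not always move together, since from SHAM4h to IRI2h the mean marker sum went from 3398 to 5604 while that of the members went from 6924 to 5565, and from IRI72h to IRI7d the markers went from 1978 to 2670 and the members from 2746 to 2540. Its part in the members' sum was not tested.

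**Figure D1:**
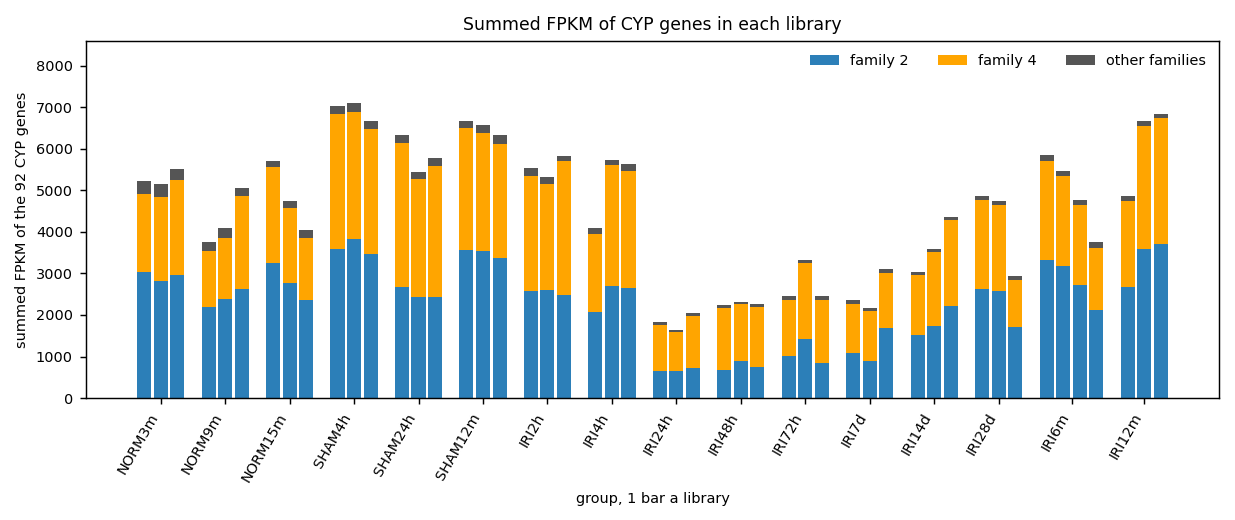
Summed FPKM of the 92 cytochrome P450 genes in each group, as 1 stacked bar a library, split into family 2, family 4 and the other families. The mean sum is 5854 in SHAM24h, 1835 in IRI24h and 6124 in IRI12m.

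Among the 40 tested members, lower calls outnumbered higher calls at every time up to 14 days, and at 28 days the order of the counts depended on the setting. At 24 hours 22 were lower and 8 higher, where 15.4% and 32.5% of all tested genes were, and the members' median difference was -0.90 against 0.18 over all tested genes. At 48 hours 19 were lower and 8 higher (all genes 23.1% and 28.5%), with medians of -0.74 and 0.02, and at 72 hours 19 and 9 (all genes 23.1% and 25.4%). Of the 22 lower calls at 24 hours, 16 held whichever library was left out, as did 17 of 19 at 48 hours and 14 of 19 at 72 hours. The counts were 17 lower and 5 higher at both 7 days (all genes 14.5% and 33.8%) and 14 days (all genes 18.9% and 30.9%), and the 14-day count of lower members was 8 without IRI14d-R1. By 28 days 8 were lower and 6 higher (all genes 9.86% and 22.3%), with 6 lower and 7 higher without IRI28d-R1, 6 of each without SHAM24h-R3, and 8 lower and 9 higher with no filter on low values. Quantile normalization, which shifts the median of all genes at 24 hours from 0.18 to -0.02, turned the 24-hour calls of all genes from 4847 higher and 2289 lower to 3566 and 3430, and those of the members to 7 higher and 25 lower. At 7 days it turned all genes from 5031 and 2161 to 3605 and 4060 and the members to 5 higher and 20 lower, and at 28 days all genes from 3325 and 1468 to 2580 and 2953 and the members to 5 higher and 12 lower.

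The first hours gave fewer calls, and many rested on single libraries. At 2 hours 11 members were lower and 6 higher (all genes 17.9% and 22.1%). After quantile normalization the members' split at 2 hours was 9 lower and 3 higher. The 6 higher calls became 3, 2 and 3 without SHAM4h-R1, SHAM4h-R2 and SHAM4h-R3 and 1 without IRI2h-R3, and the 11 lower calls became 6, 7 and 6 without SHAM4h-R2, SHAM4h-R3 and IRI2h-R3. At 4 hours 6 were lower and 2 higher (all genes 10.5% and 17.7%), with 3 lower without SHAM4h-R3 or IRI4h-R2 and 1 higher without SHAM4h-R3 or IRI4h-R3. From IRI4h to IRI24h, groups that share no control, 16 members fell and 8 rose (all genes 13.7% and 42.9%). From IRI48h to IRI28d 16 rose and 6 fell (all genes 23% and 15.2%), or 13 and 9 after quantile normalization. Over the 8 comparisons up to 28 days, 24 members were called lower in some and higher in none, 8 higher in some and lower in none, 6 in both directions, and *Cyp2d22* and *Cyp4f17* in neither. The same count over all tested genes was not made, so these counts do not set the members apart. The 6 comparisons from 24 hours to 28 days share SHAM24h.

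**Figure D2:**
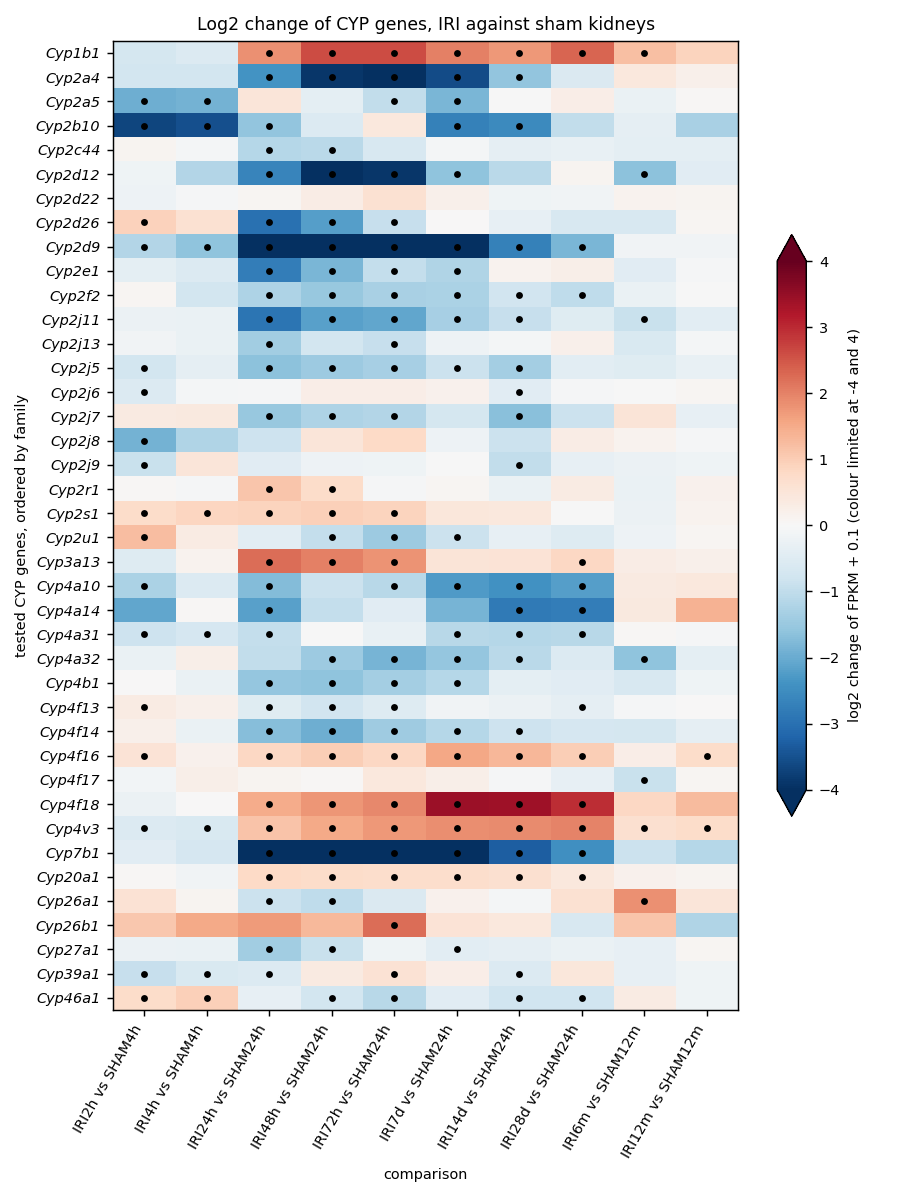
Log2 differences of the 40 tested cytochrome P450 genes in each comparison, ordered by family, with called values marked. At 24 hours 12 of 20 family 2 and 6 of 11 family 4 members are called lower, while *Cyp1b1*, *Cyp20a1*, *Cyp4f16*, *Cyp4f18* and *Cyp4v3* are higher.

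Promoter sequences were compared because members moved in opposite directions. RefSeq windows from 250 bases before to 50 after the start (GRCm38.p6) matched 72 of the 92 members, 29 of them tested, of which 14 were called lower, 8 higher and 7 neither at 48 hours. The letters TATAAA, those of the TATA box that positions the transcription machinery, were found at any position on either strand in 7 of the 14, 0 of the 8 and 2 of the 7, and in 13.6% of all 32851 promoters. Untested members, *Cyp1a1*, *Cyp2c55* and *Cyp3a11* among them, also carry TATAAA, so it is not particular to the lower members. In *Cyp26a1*, called lower, the only match lies after the start and cannot be the TATA box of that start. GCGTG, the core that AHR with its partner ARNT can bind, was found in 2, 5 and 3, and in 32.4% of all promoters. The nuclear receptor half-site AGGTCA occurred in 3, 0 and 1 (16.3% of all), and TTANGTAA, read by the clock-linked factors DBP, HLF and TEF, in 0 of the 29 (2.32% of all). The median number of CG dinucleotides was 3 in the lower members, 16.5 in the higher ones, 4 in the rest and 7 over all promoters. A direct repeat of AGTTCA with 5 bases between its copies, known as a binding site of retinoic acid receptors, was found in *Cyp26a1* and in 0.0244% of all promoters, 8 of them. A match is a run of letters, not a site shown to be bound. Of the 4 promoters shown, *Cyp2e1* and *Cyp2d9* are abundant members called lower and carry TATAAA 31 and 28 bases before the start, *Cyp1b1* is the family 1 member that rose, and *Cyp26a1* is a retinoic acid hydroxylase. They lie at chr7:140763569-140763868 (+ strand), chr15:82452127-82452426 (+ strand), chr17:79715012-79715311 (- strand), chr19:37697558-37697857 (+ strand). Capitals mark the match, which is on the other strand, and so reads as the reverse complement, in *Cyp2d9*, *Cyp1b1* and *Cyp26a1*.
Cyp2e1: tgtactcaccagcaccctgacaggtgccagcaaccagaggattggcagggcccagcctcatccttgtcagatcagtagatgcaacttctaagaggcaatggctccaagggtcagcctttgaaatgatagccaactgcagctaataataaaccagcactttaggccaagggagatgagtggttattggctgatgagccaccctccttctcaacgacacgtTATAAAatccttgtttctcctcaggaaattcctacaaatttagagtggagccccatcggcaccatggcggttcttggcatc
Cyp2d9: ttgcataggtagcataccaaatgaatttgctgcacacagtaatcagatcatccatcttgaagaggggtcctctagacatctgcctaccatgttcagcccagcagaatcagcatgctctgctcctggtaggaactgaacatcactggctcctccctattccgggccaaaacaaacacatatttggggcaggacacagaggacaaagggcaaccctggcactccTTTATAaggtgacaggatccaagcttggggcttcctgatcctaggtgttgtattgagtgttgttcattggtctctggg
Cyp1b1: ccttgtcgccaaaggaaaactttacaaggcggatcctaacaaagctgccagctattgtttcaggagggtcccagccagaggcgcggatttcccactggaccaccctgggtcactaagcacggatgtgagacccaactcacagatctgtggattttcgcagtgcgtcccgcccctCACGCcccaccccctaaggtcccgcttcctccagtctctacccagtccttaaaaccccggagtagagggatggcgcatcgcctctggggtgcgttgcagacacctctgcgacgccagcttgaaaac
Cyp26a1: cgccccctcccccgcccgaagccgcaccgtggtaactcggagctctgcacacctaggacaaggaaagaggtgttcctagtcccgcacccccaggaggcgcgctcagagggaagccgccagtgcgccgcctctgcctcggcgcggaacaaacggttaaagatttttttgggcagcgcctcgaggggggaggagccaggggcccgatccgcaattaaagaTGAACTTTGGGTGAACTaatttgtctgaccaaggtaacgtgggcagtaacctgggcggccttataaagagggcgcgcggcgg

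Members of a subfamily mostly lie side by side in the genome (GRCm38), and neighbours were not always called alike. The 7 tested Cyp2j genes lie at chr4:96027534-96664154, and 3 of them were lower and 0 higher at 48 hours, when 19 of all 40 tested members and 23.1% of all tested genes were lower. The 4 tested Cyp4a genes follow at chr4:115486200-115621602 with *Cyp4b1* beside them, and 1 of the 4 was lower. On chromosome 15 the 4 tested Cyp2d genes lie at chr15:82370527-82794294, with 3 lower. On chromosome 17 the 4 tested Cyp4f genes at chr17:32506050-32947402 were split, with *Cyp4f16* higher, *Cyp4f13* and *Cyp4f14* lower and *Cyp4f17* not called. Of the 12 tested members on chromosome 4, 5 were lower and 0 higher, a share close to that of all members.

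Family 2, the largest with 20 of 49 members tested, held the steepest fall at 48 hours and 7 days, that of *Cyp2d9*, while *Cyp7b1* of family 7 fell furthest at 24 hours, 72 hours and 14 days. *Cyp2e1* was at 1102, 826 and 869 FPKM in the 3 SHAM24h kidneys and at 105, 115 and 214 FPKM in the 3 IRI24h kidneys. Every injured kidney lay below every sham, a difference of -2.75 on the log2 scale (SE 0.33; adjusted p = 1.43e-08). It was -1.82 at 48 hours, -0.96 at 72 hours and -1.19 at 7 days. By 14 days the values were 920.4, 914 and 1287 FPKM, within or above the SHAM24h range, and the difference was 0.15 (not called, adjusted p = 0.731), with 0.22 (not called, adjusted p = 0.655) at 28 days. The IRI14d and IRI28d means were 112% and 118% of the SHAM24h mean. SHAM4h, SHAM12m and NORM3m were higher, at 173%, 142% and 127%, and NORM9m and NORM15m lower, at 68.5% and 80.9%. The call of *Cyp2e1* at 72 hours was lost without SHAM24h-R1 (-0.83) or without IRI72h-R3 (-0.67). The call of *Cyp2e1* at 7 days was lost without IRI7d-R2 (-0.75), and in a fit of the compared groups alone.

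The Cyp2j subfamily, known for epoxides of arachidonic acid, had all 7 tested members called lower at 1 time or more up to 28 days, at different times. Of all 40 tested members, 24 were called lower in some of these comparisons and higher in none, and 6 in both directions. No such count was made over all tested genes, so the 7 of 7 does not set the subfamily apart. *Cyp2j5* went from 674, 675 and 684 FPKM in SHAM24h to 233, 242 and 186 FPKM in IRI24h, with no overlap, a difference of -1.63 on the log2 scale (SE 0.26; adjusted p = 2.55e-06). It was called lower at 2 hours (-0.72; -0.42 and not called without IRI2h-R3) and at each later time from 24 hours to 14 days (-1.44, -1.34, -0.85 and -1.36 after the first) and was -0.41 (not called, adjusted p = 0.243) at 28 days. *Cyp2j11* fell further, from 122, 115 and 106 FPKM to 14.7, 17.1 and 13.7 FPKM, a difference of -2.91 (SE 0.29; adjusted p = 2.29e-10). *Cyp2j6* stood at 14.4, 13.8 and 14.0 FPKM in SHAM24h and 14.2, 13.8 and 13.2 FPKM in IRI24h, overlapping, with -0.03 (not called, adjusted p = 0.902), and was called lower at 2 hours (-0.54) and 14 days (-0.46). The first of these calls of *Cyp2j6* was lost without IRI2h-R3 (-0.20) and the second without any 1 of 5 libraries (-0.47 to -0.33). *Cyp2j7* (-1.52) and *Cyp2j13* (-1.39) were also lower at 24 hours. The coding sequences of *Cyp2j5* and *Cyp2j6* are 78.3% identical.

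The Cyp2d subfamily held the largest fall of any member. *Cyp2d9*, a testosterone hydroxylase of male mouse liver, was at 186, 185 and 177 FPKM in SHAM24h and at 1.65, 1.27 and 1.56 FPKM in IRI48h. The groups were far apart, a difference of -6.85 on the log2 scale (SE 0.47; adjusted p = 9.76e-14). It was -4.19 at 24 hours, -4.84 at 7 days and still -1.83 at 28 days, with 65.2, 60.9 and 33.7 FPKM, each called. *Cyp2d12* went from 22.1, 38.6 and 29.0 FPKM to 0.793, 0.943 and 0.708 FPKM, a difference of -5.01 (SE 0.57; adjusted p = 5.73e-09), and was 0.12 (not called, adjusted p = 0.904) at 28 days. SHAM24h was the lowest control group of *Cyp2d12*. The IRI28d mean was 112% of the SHAM24h mean, and the other control groups were at 176% (NORM3m) to 741% (SHAM12m), with SHAM4h at 257%. *Cyp2d26* stood at 75.5, 117 and 121 FPKM in SHAM24h and 10.6, 17.6 and 11.3 FPKM in IRI24h, a difference of -2.99 (SE 0.37; adjusted p = 2.86e-08), and at 0.02 (not called, adjusted p = 0.980) at 7 days. *Cyp2d22* was not called in any of the 8 comparisons, at 0.07 (adjusted p = 0.896) at 24 hours. The coding sequences of *Cyp2d9* and *Cyp2d12* are 92.1% identical, and 4.18% of the 100-base windows of *Cyp2d12* also occur in *Cyp2d9*. Of the windows of *Cyp2d9*, 11.3% occur in some other gene, *Cyp2d10* holding the most (4.60%), so reads could be split among these genes.

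*Cyp2a4* and *Cyp2a5* differ at 23 of 1482 coding bases and are called differently at 48 hours. *Cyp2a4* was at 269.6, 239.6 and 219 FPKM in SHAM24h, 13.8, 26.9 and 11.2 FPKM in IRI48h and 6.96, 35.4 and 7.15 FPKM in IRI72h, below every sham at both times, with differences of -3.91 (SE 0.44; adjusted p = 4.92e-09) and -4.31 (SE 0.44; adjusted p = 9.76e-10). *Cyp2a5*, a coumarin hydroxylase, was at 79.8, 98.2 and 85.7 FPKM in SHAM24h and 62.6, 66.2 and 73.3 FPKM in IRI48h, and its difference of -0.38 was not called (adjusted p = 0.466). In IRI24h all 3 values of *Cyp2a5* (138, 103 and 132 FPKM) lay above the sham range, at 0.49 (not called, adjusted p = 0.348). It was called lower at 2 hours (-1.94), 4 hours (-1.88), 72 hours (-0.98) and 7 days (-1.81), and the 72-hour call was lost without any 1 of SHAM24h-R1, SHAM24h-R2, SHAM24h-R3, IRI72h-R2 or IRI72h-R3 (-1.05 to -0.65). The difference between the genes' responses was not tested, and 13.2% of the 100-base coding windows of *Cyp2a4* and 19.9% of those of *Cyp2a5* occur unchanged in another gene, so some reads cannot be placed. The stretch of coding bases 596 to 655 (counted from the first base of the start codon; GENCODE M21, GRCm38, chromosome 7) is shown to let the near identity be seen, with capitals at the 4 bases that differ.
Cyp2a4: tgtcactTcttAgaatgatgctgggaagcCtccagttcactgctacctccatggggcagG
Cyp2a5: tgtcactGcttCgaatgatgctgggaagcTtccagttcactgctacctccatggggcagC

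Other family 2 members moved in smaller or opposite ways. *Cyp2b10*, a target of the xenobiotic receptor CAR, was at 5.24, 9.80 and 4.87 FPKM in SHAM4h, 0.549, 0.491 and 0.237 FPKM in IRI2h and 1.00, 1.00 and 1.12 FPKM in SHAM24h. Injured kidneys lay below their sham at 2 hours (-3.66, SE 0.66, adjusted p = 3.82e-05) and 4 hours (-3.50), and below SHAM24h at 7 days (-2.69) and 14 days (-2.56), the last 2 called whichever library was left out. The call of *Cyp2b10* at 24 hours (-1.57) was lost without any 1 of 5 libraries (-0.92 without IRI24h-R1). The sham groups themselves differed by -2.49 from 4 to 24 hours. *Cyp2f2*, known for naphthalene oxidation in lung club cells, was lower at each time from 24 hours to 28 days (-1.53 at 48 hours, the steepest, to -0.78 at 14 days, with -1.0 at 28 days). *Cyp2c44*, an arachidonic acid epoxygenase now named Cyp2c23, was at -1.09 at 48 hours. The call of *Cyp2f2* at 14 days was lost without SHAM24h-R2 (-0.59) or without IRI14d-R1 (-0.70). The call of *Cyp2f2* at 28 days was lost without SHAM24h-R2 (-0.82).

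*Cyp2j8* was at 1.11, 0.568 and 0.662 FPKM in SHAM4h and 0.139, 0.174 and 0.0790 FPKM in IRI2h, below every sham kidney (-1.91, SE 0.49, adjusted p = 0.00227), and was 0.48 (not called, adjusted p = 0.429) at 48 hours. *Cyp2j9* was lower at 2 hours (-0.90; -0.50 and not called without IRI2h-R3) and at 14 days, at 2.28, 4.21 and 2.34 FPKM against 5.53, 5.48 and 6.27 FPKM in SHAM24h (-1.0, SE 0.36, adjusted p = 0.0190). The call of *Cyp2j9* at 14 days was lost without SHAM24h-R3 (-0.94), without IRI14d-R1 (-0.85) or without IRI14d-R3 (-0.87).

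*Cyp2r1*, a vitamin D hydroxylase of the liver, rose from 0.969, 1.03 and 1.02 FPKM in SHAM24h to 2.30, 2.42 and 2.12 FPKM in IRI24h. No values overlapped, and the difference was 1.10 on the log2 scale (SE 0.24; adjusted p = 2.21e-04). It was -0.03 (not called, adjusted p = 0.925) at 72 hours. *Cyp2s1*, an oxidase of epithelia, was at 8.25, 7.20 and 7.66 FPKM in SHAM24h and 16.9, 12.4 and 15.5 FPKM in IRI48h, all above the sham range (0.94, SE 0.22, adjusted p = 4.48e-04). *Cyp2u1*, a fatty acid hydroxylase, was higher at 2 hours (1.24) and lower at 48 hours (-0.95), 72 hours (-1.45) and 7 days (-0.85), and SHAM24h was above SHAM4h by 1.10.

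**Figure D3:**
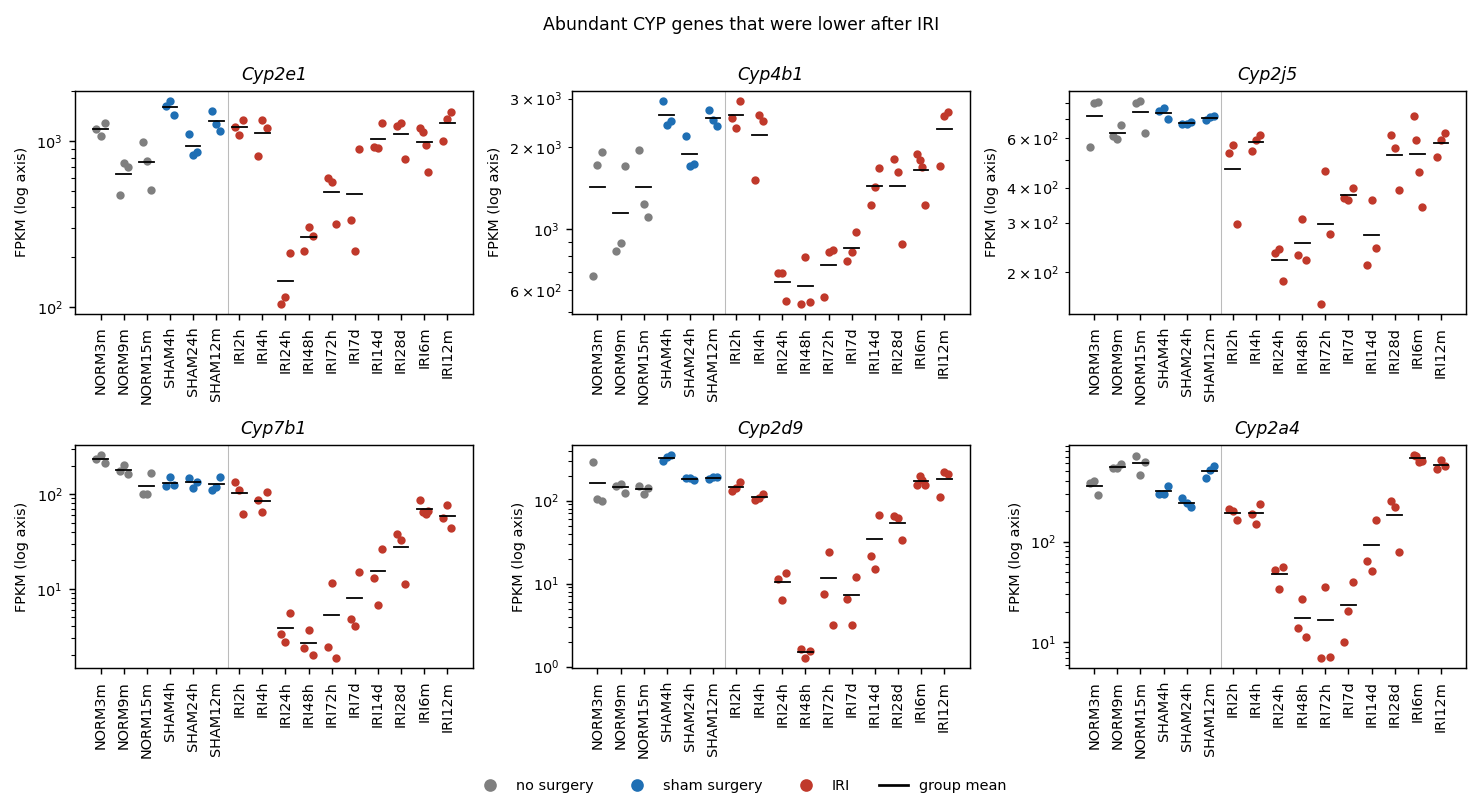
FPKM of *Cyp2e1*, *Cyp4b1*, *Cyp2j5*, *Cyp7b1*, *Cyp2d9* and *Cyp2a4* in every library by group, on log axes. *Cyp2d9* sits at 1.65, 1.27 and 1.56 FPKM in IRI48h against 186, 185 and 177 FPKM in SHAM24h, and *Cyp2e1* is within or above the SHAM24h range at 14 days.

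Family 4 genes hydroxylate fatty acids at their end, and 11 of 17 were tested. *Cyp4b1*, the most abundant member, was at 2192, 1701 and 1734 FPKM in SHAM24h and 533, 792 and 542 FPKM in IRI48h. All injured kidneys lay below all shams, a difference of -1.61 on the log2 scale (SE 0.30; adjusted p = 2.50e-05). It was also called lower at 24 hours (-1.54), 72 hours (-1.35) and 7 days (-1.13), and was -0.38 (not called, adjusted p = 0.291) at 14 days.

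The Cyp4a subfamily, lipid-induced targets of PPARA, also varied among uninjured kidneys. *Cyp4a14* was at 9.70, 86.2 and 53.0 FPKM in SHAM4h, 423, 422 and 552 FPKM in SHAM24h and 469, 14.5 and 30.0 FPKM in NORM3m. The 24-hour shams stood above every 4-hour sham, by 3.70 on the log2 scale (SE 0.91; adjusted p = 0.00155), and 1 NORM3m kidney was as high. *Cyp4a10* was at 110.0, 327 and 252 FPKM in SHAM4h and 579.9, 488 and 623 FPKM in SHAM24h, a difference of 1.43 (SE 0.41; adjusted p = 0.00652). SHAM24h was the highest control group of both genes. The other control groups of *Cyp4a10* were at 21.7% (SHAM12m) to 43.7% (NORM3m) of the SHAM24h mean, with IRI14d at 19.3% and IRI28d at 22.8%. Those of *Cyp4a14* were at 3.89% (SHAM12m) to 36.7% (NORM3m), with IRI14d at 15.2%. After injury *Cyp4a10* was at 66.3, 126 and 134 FPKM in IRI14d, below all SHAM24h values (-2.43, SE 0.41, adjusted p = 7.31e-06). It was also lower at 24 hours (-1.72), 72 hours (-1.10), 7 days (-2.27) and 28 days (-2.21), the 72-hour call being lost without any 1 of 4 libraries (-1.07 to -1.0). *Cyp4a31* was lower at 24 hours (-0.94; -0.65 and not called without IRI24h-R2), 7 days (-1.11), 14 days (-1.15) and 28 days (-1.09). *Cyp4a14* was called lower at 24 hours (-2.18; not called without any 1 of 5 libraries, -1.62 without IRI24h-R2) and 14 days (-2.83; -2.37 and not called without IRI14d-R1). The fall of *Cyp4a14* at 28 days (-2.77) was not called once SHAM4h was added to the control. The call of *Cyp4a10* in SHAM24h against SHAM4h was lost without SHAM4h-R1 (0.96). The call of *Cyp4a14* at 28 days was lost without SHAM24h-R3 (-2.64) or without IRI28d-R3 (-2.36), and against SHAM4h and SHAM24h together (-0.92). *Cyp4a32* was at 3.11, 2.61 and 2.97 FPKM in SHAM24h and 0.687, 0.653 and 0.834 FPKM in IRI72h (-1.86, SE 0.44, adjusted p = 6.89e-04). Its IRI72h mean was 25.0% of the SHAM24h mean, near the 24.2% of the uninjured NORM9m group. The remaining control groups were at 37.4% (NORM15m) to 110% (SHAM12m). The coding sequences of *Cyp4a10* and *Cyp4a31* are 96.6% identical, and 17.9% and 13.9% of their 100-base windows recur in another gene.

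**Figure D4:**
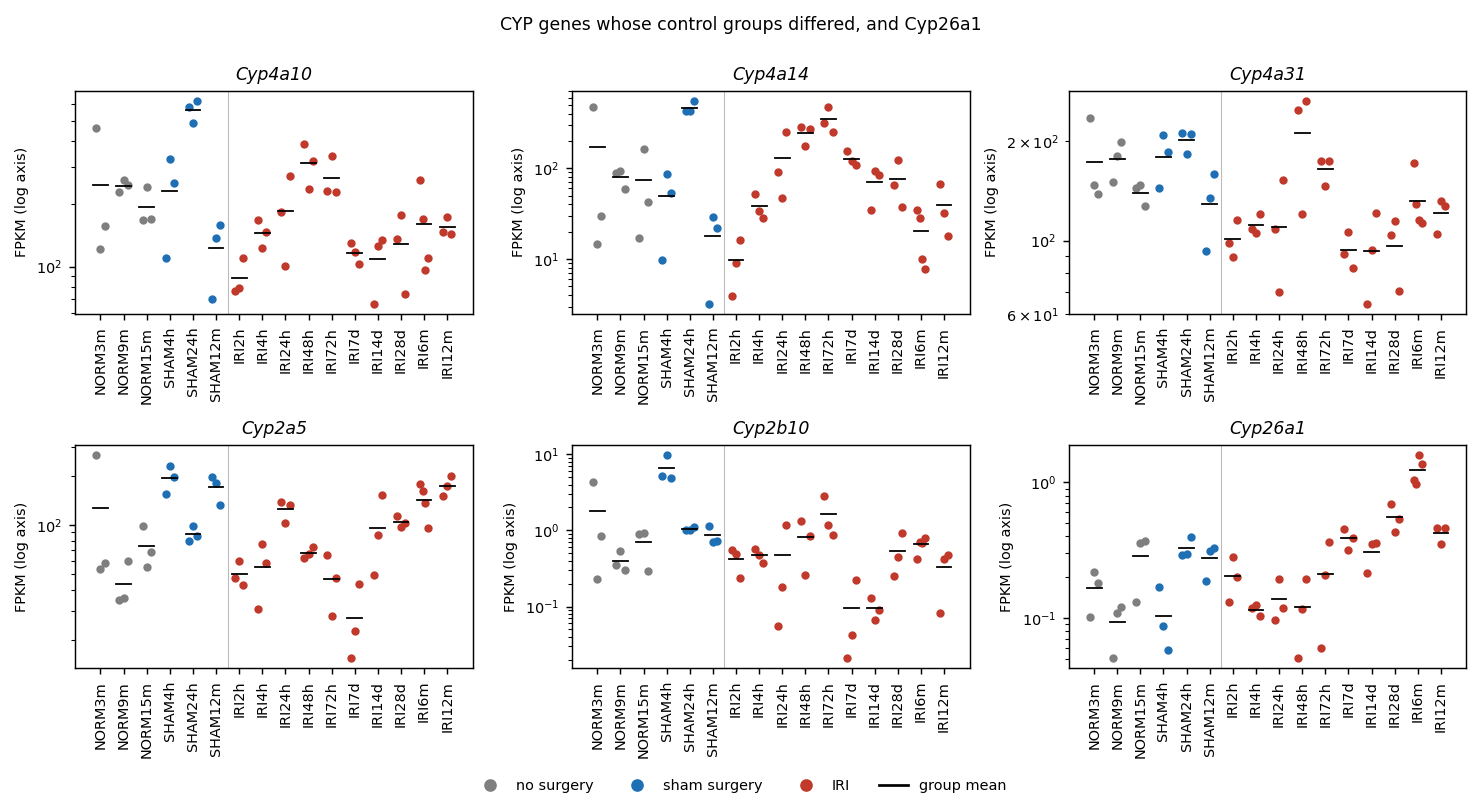
FPKM of *Cyp4a10*, *Cyp4a14*, *Cyp4a31*, *Cyp2a5*, *Cyp2b10* and *Cyp26a1* in every library by group, on log axes. *Cyp4a14* spans 9.70, 86.2 and 53.0 FPKM in SHAM4h and 423, 422 and 552 FPKM in SHAM24h, and *Cyp26a1* is highest in IRI6m.

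The Cyp4f and Cyp4v genes held 3 members that rose from 24 hours to 28 days. *Cyp4f18*, a leukotriene hydroxylase of mouse neutrophils and other myeloid cells, was at 0.433, 0.212 and 0.296 FPKM in SHAM24h and 4.54, 3.40 and 4.84 FPKM in IRI7d. The groups did not overlap, a difference of 3.42 on the log2 scale (SE 0.44; adjusted p = 5.66e-08), and it was 3.38 at 14 days and 2.95 at 28 days. *Cyp4f18* reached at most 0.9865 FPKM in the 18 control libraries, so only injured kidneys took it past the filter. *Cyp4v3*, a fatty acid hydroxylase, went from 1.44, 1.43 and 1.39 FPKM in SHAM24h to 3.06, 3.08 and 3.58 FPKM in IRI24h and 4.33, 5.72 and 8.21 FPKM in IRI28d, above every sham kidney at both times (1.98, SE 0.21, adjusted p = 4.73e-09, at 28 days), after being called lower than SHAM4h at 2 hours (-0.53) and 4 hours (-0.62). Neither early call of *Cyp4v3* held without SHAM4h-R3 (-0.35 and -0.44) or without IRI2h-R3 (-0.35) and IRI4h-R3 (-0.59). *Cyp4f16* was at 3.75, 4.07 and 4.18 FPKM in SHAM24h and 12.1, 12.4 and 11.5 FPKM in IRI7d, with no overlap (1.56, SE 0.19, adjusted p = 1.52e-08). *Cyp4f14*, another leukotriene hydroxylase, fell instead, from 0.746, 0.946 and 0.559 FPKM to 0.0712, 0.261 and 0.0647 FPKM at 48 hours (-1.95, SE 0.34, adjusted p = 1.10e-05). The summed FPKM of 10 macrophage markers rose over the same weeks. It was 49.8 to 61.0 in SHAM24h, 1080.3 to 1355 in IRI7d with 10 of 10 called higher (all genes 33.8%), and 867 to 1473 in IRI28d. The sum of 6 neutrophil markers was 2.62 to 5.81 in SHAM24h, 43.5 to 157 in IRI48h and 7.74 to 25.2 in IRI28d. The part of these cells in the rise of *Cyp4f18*, *Cyp4f16* and *Cyp4v3* was not tested.

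Sterol hydroxylases of families 7, 27, 39 and 46 each had 1 tested member. *Cyp7b1*, which hydroxylates oxysterols on the alternative path to bile acids, was at 149, 116 and 133 FPKM in SHAM24h and 2.38, 3.70 and 1.99 FPKM in IRI48h. The groups were far apart, a difference of -5.61 on the log2 scale (SE 0.48; adjusted p = 8.78e-12). It was called lower at each time from 24 hours (-5.13) to 28 days (-2.44), when it was at 37.7, 33.1 and 11.3 FPKM, still below every sham kidney. *Cyp27a1*, the mitochondrial sterol hydroxylase, went from 35.8, 36.7 and 37.5 FPKM to 12.7, 14.1 and 14.6 FPKM at 24 hours (-1.40, SE 0.16, adjusted p = 9.55e-09), and was -0.16 (not called, adjusted p = 0.435) at 72 hours. *Cyp39a1*, an oxysterol hydroxylase, was at 3.13, 4.96 and 3.70 FPKM in SHAM4h and 2.35, 2.86 and 1.12 FPKM in IRI2h, lower by the test (-0.94, SE 0.22, adjusted p = 0.00102), and was also called lower at 4 hours (-0.60), 24 hours (-0.54) and 14 days (-0.56) and higher at 72 hours (0.59). The calls of *Cyp39a1* at 4 hours, 24 hours and 14 days were each lost without any 1 of 4 to 6 libraries. *Cyp46a1*, the cholesterol hydroxylase of neurons, stayed low, and its 6 calls up to 28 days differed with the control, since SHAM24h was above SHAM4h by 1.58. With both sham groups as control *Cyp46a1* was -0.068 at 2 hours, 0.058 at 48 hours and 0.00046 at 28 days, none called. The call of *Cyp39a1* at 2 hours was lost in a fit of the compared groups alone. The value of *Cyp39a1* at 2 hours was -0.56 without IRI2h-R3. The call of *Cyp39a1* at 72 hours was lost without SHAM24h-R1, SHAM24h-R2, SHAM24h-R3 or IRI72h-R2 (0.53 to 0.60).

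The 1 tested member of each of families 1, 3 and 20 rose, these families having 3, 7 and 1 members. *Cyp1b1*, an oxidase of estrogens and polycyclic hydrocarbons that mesenchymal cells express, was at 2.87, 4.06 and 6.58 FPKM in SHAM24h and 28.7, 15.9 and 41.2 FPKM in IRI48h. All injured values lay above the shams, a difference of 2.61 on the log2 scale (SE 0.41; adjusted p = 2.27e-06), and it remained called higher at each time to 28 days (2.34). The SHAM4h values (10.3, 7.96 and 7.96 FPKM) lay above those of SHAM24h. *Cyp3a13*, the one tested member of the drug-oxidising family 3, was at 0.205, 0.211 and 0.289 FPKM in SHAM24h and 1.42, 1.38 and 1.59 FPKM in IRI24h, well apart (2.23, SE 0.28, adjusted p = 2.98e-08). *Cyp3a13* reached at most 0.399 FPKM in the 18 control libraries. Only injured kidneys took it past the filter, so the filter favoured a rise. *Cyp20a1*, whose substrate is not established, was at 8.13, 8.69 and 8.96 FPKM in SHAM24h and 15.5, 14.7 and 14.6 FPKM in IRI24h, also apart (0.79, SE 0.11, adjusted p = 4.33e-07). The FPKM sum of 7 fibroblast markers was 77.7 to 95.3 in SHAM24h and 667 to 938 in IRI48h, with 6 of 7 called higher (all genes 28.5%). The part of fibroblasts in the *Cyp1b1* values was not tested. Of 3 tested AHR targets outside the members, *Aldh3a1* (2.84) and *Nqo1* (1.89) were higher at 48 hours (all genes 28.5%), the other tested target being *Tiparp*. The AHR target *Cyp1a1*, below the filter, had lower values in IRI48h than in SHAM24h, as given above. A part of AHR in the *Cyp1b1* values was not tested.

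**Figure D5:**
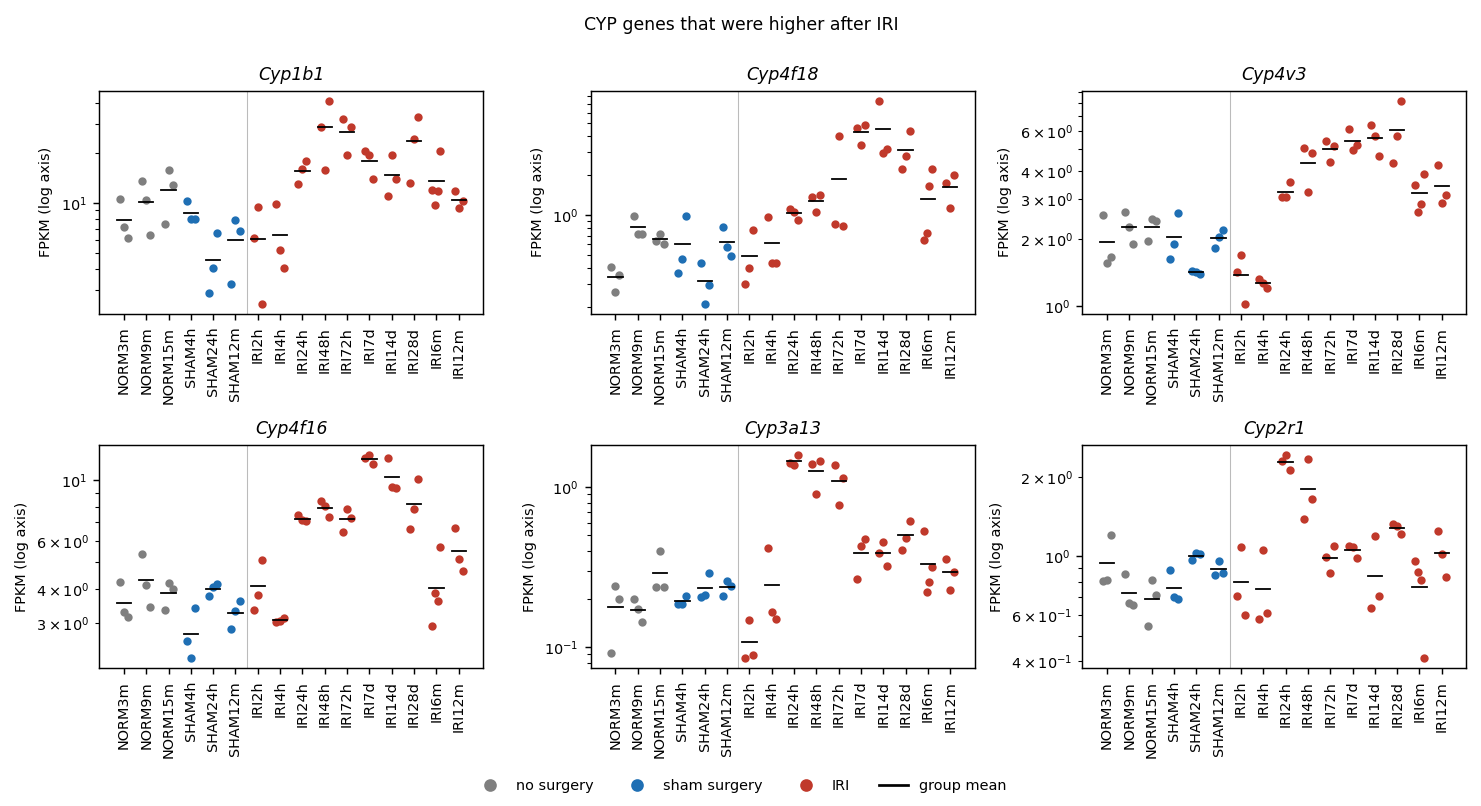
FPKM of *Cyp1b1*, *Cyp4f18*, *Cyp4v3*, *Cyp4f16*, *Cyp3a13* and *Cyp2r1* in every library by group, on log axes. *Cyp3a13* and *Cyp2r1* peak at 24 hours, and *Cyp4f18* reaches 4.54, 3.40 and 4.84 FPKM in IRI7d.

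Family 26 degrades retinoic acid. *Cyp26a1* was low, at 0.293, 0.297 and 0.397 FPKM in SHAM24h, 0.186, 0.313 and 0.330 FPKM in SHAM12m and 0.0509, 0.108 and 0.120 FPKM in NORM9m, and at 1.05, 0.965, 1.59 and 1.36 FPKM in IRI6m. The 6-month injured kidneys lay above every kidney of both late controls, by 1.83 on the log2 scale (SE 0.30; adjusted p = 7.52e-06) against SHAM12m and 2.79 (SE 0.30; adjusted p = 8.19e-08) against NORM9m. *Cyp26a1* reached at most 0.397 FPKM in the 18 control libraries, and its IRI6m values took it past the filter. The filter therefore favoured these 6-month calls. *Cyp26a1* was called lower than SHAM24h at 24 hours (-0.87) and 48 hours (-1.0, SE 0.33, adjusted p = 0.00966). The first call was lost without SHAM24h-R3, IRI24h-R1 or IRI24h-R3 (-0.82 to -0.75) and the second without IRI48h-R1 (-0.76). *Cyp26b1* went from 1.15, 0.267 and 0.786 FPKM in SHAM24h to 4.58, 2.91 and 2.85 FPKM in IRI72h, without overlap (2.23, SE 0.74, adjusted p = 0.0118). The uninjured NORM3m group had a higher mean than IRI72h, 613% and 470% of the SHAM24h mean, with NORM3m-R3 at 10.5 FPKM. The remaining control groups were at 91.3% (NORM9m) to 213% (SHAM12m). Among 9 genes of retinoid synthesis, binding and response, 6 were higher and 1 lower at 48 hours (all genes 28.5% and 23.1%). The rises were led by *Aldh1a2* (4.93), which makes retinoic acid, and the binding protein gene *Crabp1* (4.03). In IRI6m 6 of the 9 were higher than in SHAM12m (all genes 30.4%), groups that also differ in depth, age and surgery. The call of *Cyp26b1* at 72 hours was lost without SHAM24h-R2 (1.72).

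Genes that work with the members or control them were read beside them. Of 5 genes that pass electrons to microsomal P450 enzymes 1 was higher and 0 lower at 48 hours (all genes 28.5% and 23.1%). At that time *Por* was at -0.35 (adjusted p = 0.0520) and the cytochrome b5 reductase gene *Cyb5r3* at 1.01. Leaving out 1 library gave 0 or 1 lower. Of 8 heme synthesis genes 1 was higher and 4 lower at 48 hours (all genes 28.5% and 23.1%), *Uros* (-1.70) among the lower. With 1 library left out, 2 to 4 were lower. Of 14 tested transcription factors known to control *Cyp* genes, 7 were lower at 48 hours whichever library was left out (all genes 23.1%), the clock output factors *Dbp* (-3.44), *Hlf* (-1.46) and *Tef* (-1.32) among them, and 1 was higher (0 to 2 with 1 library left out; all genes 28.5%). Of 5 androgen-dependent kidney genes 3 were lower (all genes 23.1%), *Slco1a1* (-3.83), *Acsm3* (-3.41) and *Kap* (-1.43). Of 8 PPARA targets outside the members, 7 were lower at 2 hours (all genes 17.9%), where *Cyp4a10* (-1.26) and *Cyp4a31* (-0.82) were lower too. With 1 library left out, 3 to 7 of the 8 were lower. The call of *Cyp4a10* at 2 hours was lost without SHAM4h-R2 (-0.93) or without SHAM4h-R3 (-1.12), and in a fit of the compared groups alone. The call of *Cyp4a31* at 2 hours was lost without SHAM4h-R2 (-0.70). Between the sham groups 3 of the 8 PPARA targets, *Pdk4* (-4.38), *Acot2* and *Cpt1a*, were lower in SHAM24h (all genes 6.57%), opposite in sign to *Cyp4a10* and *Cyp4a14*. Outside the symbol pattern, the sterol demethylase *Cyp51* was -2.83 and *Cyp4a12a* -2.19 at 72 hours, both called lower.

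At 12 months few members were called different from sham. Uncalled differences reached -1.30 in family 2 and 1.40 in family 4. *Cyp4f16* was at 2.85, 3.32 and 3.61 FPKM in SHAM12m and 6.67, 5.14 and 4.64 FPKM in IRI12m, and *Cyp4v3* at 1.82, 2.03 and 2.18 FPKM and 4.25, 2.87 and 3.14 FPKM. Neither overlapped, and these were the 2 of 40 members called higher (0.72, SE 0.19, adjusted p = 0.00905, and 0.72, SE 0.21, adjusted p = 0.0217), where 8.44% of all genes were. By limma 0 members were lower, with 1 at an unadjusted p below 0.05, 1 after quantile normalization and 2 in a fit of the compared groups alone (all genes 0.369%). Neither higher call held without SHAM12m-R1 or IRI12m-R1, and 1 held without SHAM12m-R2. *Cyp7b1* was at 109, 120.0 and 153 FPKM in SHAM12m and 55.5, 76.6 and 43.6 FPKM in IRI12m, not overlapping but not called (-1.14, SE 0.48, adjusted p = 0.160). The macrophage marker sum was 93.0 to 155 in SHAM12m and 337 to 577 in IRI12m. The call of *Cyp4f16* in IRI12m against SHAM12m was lost without SHAM12m-R1 (0.63) or without IRI12m-R1 (0.57), and after quantile normalization (0.54). The call of *Cyp4v3* in IRI12m against SHAM12m was lost without SHAM12m-R1 (0.66), without SHAM12m-R2 (0.73) or without IRI12m-R1 (0.56), and after quantile normalization (0.48).

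IRI6m against SHAM12m, which differ in depth, age and surgery, gave 3 members higher, *Cyp26a1* (1.83), *Cyp1b1* (1.20) and *Cyp4v3* (0.64), and 4 lower, *Cyp2d12* (-1.65), *Cyp4a32* (-1.62), *Cyp2j11* (-0.88) and *Cyp4f17* (-0.88) (all genes 30.4% and 20.9%), or 3 and 12 after quantile normalization. The 6 fat markers summed to 11.1 to 12.2 FPKM in SHAM12m and 26.1 to 123 in IRI6m. Against NORM9m, which lies in the same depth set, 3 were higher, *Cyp26a1* (2.79), *Cyp26b1* (2.36) and *Cyp2a5* (1.71), and limma called 0 lower, with 4 at an unadjusted p below 0.05 (all genes 6.25% and 2.07%). That count of 0 was 4 with no filter on low values, 1 with a pseudocount of 1, after quantile normalization or in a fit of the compared groups alone, and 2 without IRI6m-R1. IRI12m against NORM15m, across depth sets, gave 6 higher, *Cyp2a5* (1.26), *Cyp4f17* (1.21), *Cyp4f18* (1.17), *Cyp27a1* (0.69), *Cyp4v3* (0.56) and *Cyp4f16* (0.49) (all genes 20.9%). Limma called 0 lower (all genes 10.5%), with 1 at an unadjusted p below 0.05 and between 1 and 10 under 4 other settings. The 6 were 2 without NORM15m-R3 and 3 without IRI12m-R3, and after quantile normalization 5 were higher and 2 lower. The call of *Cyp1b1* in IRI6m against SHAM12m was lost without SHAM12m-R1 (0.82) or without IRI6m-R4 (0.98), and with a replicate block (0.98). The call of *Cyp2d12* in IRI6m against SHAM12m was lost without IRI6m-R1 (-1.09), and in a fit of the compared groups alone.

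Uninjured kidneys also differed among themselves. Between the sham groups 8 members were higher and 3 lower at 24 hours than at 4 hours (all genes 26.5% and 6.57%), the higher ones being *Cyp4a14* (3.70), *Cyp46a1* (1.58), *Cyp4a10* (1.43), *Cyp26a1* (1.10), *Cyp2u1* (1.10), *Cyp2s1* (0.94), *Cyp4f16* (0.55) and *Cyp4f13* (0.40) and the lower ones *Cyp2b10* (-2.49), *Cyp2j8* (-1.55) and *Cyp2a5* (-1.12). After quantile normalization 5 were higher and 4 lower. The hour of the day at which kidneys were taken is not in the labels, and time after surgery and time of day cannot be told apart. The 3 lower calls became 1 without SHAM24h-R2. With age, NORM15m against NORM3m gave 1 member higher, *Cyp2c44* (1.35), and 1 lower, *Cyp4f17* (-0.83) (all genes 5.47% and 3.44%), with 2 lower without NORM3m-R2. *Cyp4b1* was at 674, 1709 and 1909 FPKM and *Cyp2a5* at 267, 53.6 and 58.9 FPKM in NORM3m, where the first kidney stood apart in both.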

How the data were processed

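RNA of 49 whole mouse kidneys in 16 groups was prepared by the authors with a poly(A), unstranded TruSeq kit, read in 100-cycle pairs, aligned with STAR 2.5.0b to mm10 and counted against GENCODE M4, and deposited as 1 table of FPKM values per gene and library. The tool that made the FPKM is not given in the sources used here, and the submitters' processing notes also name DESeq2. FPKM holds no counts, so differences were tested with limma 3.58.1 (run in R 4.3.3, with eBayes set to a mean trend and to robust variances) on log2(FPKM + 0.1), in 1 fit of all 49 libraries with the group as the only term, for genes at 1 FPKM or more in at least 3 libraries, two-sided, with Benjamini-Hochberg adjustment within each comparison at 0.05. P-values set a difference against 1 spread per gene, that of libraries about their group means over all 16 groups. They do not reflect the spread of the compared groups alone.

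Depth was estimated from the steps of low values, of which a median of 93.5% per library came out whole to within 0.1 read (lowest 91.1%), and limits the precision of low genes. The fit was tested on simulated data.

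The members and gene lists were chosen with earlier results of these data known. Values by library are given for the 2 highest members of each family in controls, the 2 with the largest called changes after IRI and members with a known kidney role, and further members were added after their values were seen. Promoters are RefSeq's (GRCm38.p6), and coding sequences and coordinates are those of GENCODE M21 on GRCm38, where all 92 members matched by gene ID. Alternatives were another pseudocount, no filter, quantile normalization, a replicate block, a fit of the compared groups alone, both early sham groups as control, each library left out, and a wider symbol rule. Tables were made with Python 3.11.15, pandas 2.3.3 and matplotlib 3.10.9.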

Additional observations from a re-analysis of the deposited data

Results flagged for a closer look

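In IRI6m, the only group of 4, *Cyp2j9* was at 6.00, 6.55, 6.45 and 3.12 FPKM, and the gap below the others took 0.881 of the group's range. *Cyp46a1* was at 1.24, 0.559, 1.20 and 1.21 FPKM, with a gap of 0.963 of the range. Both gaps exceed Dixon's 95% limit for 4 values, which chance alone passes in about 1 in 20 groups. It was passed by 2 of the 40 tested members.

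For 6 members every injured kidney lay on one side of its sham at 1 time and on the other side at another, and the difference between the times was not tested. *Cyp2u1* was 1.24 on the log2 scale at 2 hours and -1.45 at 72 hours. *Cyp4v3* was -0.62 at 4 hours and 1.98 at 28 days. *Cyp46a1* was 0.95 at 4 hours and -1.10 at 72 hours. *Cyp2d26* was 0.92 at 2 hours and -2.99 at 24 hours. *Cyp4f13* was 0.32 at 2 hours and -0.75 at 48 hours. *Cyp39a1* was -0.94 at 2 hours and 0.59 at 72 hours. The early times have SHAM4h and the later ones SHAM24h as control, and these sham groups differed in *Cyp2u1*, *Cyp46a1* and *Cyp4f13* themselves.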

How the results depend on the processing

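Of 245 called differences of single members, 239 held with a replicate block and 6 lost the call, and no count moved by over 1.5 times. In 0 of 16 comparisons did every pair of same-numbered libraries deviate together with a correlation over 0.1 (correlations of -0.301 to 0.211). With so few libraries a group, this rule cannot exclude a pairing or a shared batch. Of the same differences 235 held with a pseudocount of 1, 225 after quantile normalization, 218 with no filter, 213 in a fit of the compared groups alone, and 144 of 168 against both early sham groups. The causes of the changes below were not tested.

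At 2 hours the members higher were 3 after quantile normalization, 3 in a fit of the compared groups alone, 2 against both sham groups and 1 to 5 with 1 library left out, and those lower were 6 in a fit of the compared groups alone and 6 to 11 with 1 library left out. At 4 hours the members higher were 1 against both sham groups and 1 to 3 with 1 library left out, and those lower 11 in a fit of the compared groups alone and 3 to 6 with 1 library left out. The members higher were 9 against both sham groups at 7 days and 8 with no filter at 14 days, where those lower were 8 to 17 with 1 library left out. Against both sham groups *Cyp46a1* turned to -0.068 at 2 hours, 0.058 at 48 hours and 0.00046 at 28 days.

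For IRI6m against SHAM12m the members lower were 12 after quantile normalization and 8 in a fit of the compared groups alone. For IRI12m against SHAM12m those higher were 0 after quantile normalization and 0 to 3 with 1 library left out, and those lower 1 after quantile normalization and 2 in a fit of the compared groups alone. For IRI6m against NORM9m those lower were 1 with a pseudocount of 1, after quantile normalization and in a fit of the compared groups alone, 4 with no filter and 0 to 2 with 1 library left out. For IRI12m against NORM15m those higher were 3 with no filter and 2 to 5 with 1 library left out, and those lower 1 with a pseudocount of 1, 10 with no filter, 2 after quantile normalization and 1 in a fit of the compared groups alone. For SHAM24h against SHAM4h those higher were 5 after quantile normalization and 13 in a fit of the compared groups alone, and those lower 10 in a fit of the compared groups alone and 1 to 3 with 1 library left out. For NORM15m against NORM3m those higher were 4 with no filter and 2 in a fit of the compared groups alone, and those lower 1 to 2 with 1 library left out. The wider symbol rule gives 98 members in place of 92.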
